A study of Mus musculus with 12 samples.

Results

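Mouse skin wounds that received capsaicin (CAP) in Pluronic F127 gel were compared at day 6 with wounds given only the gel, the sham group. The comparison rests on 6 of the 12 libraries of the series, the 3 titled 10 uM CAP Day6 and the 3 titled P-F127 Day6, and on the 18323 of 55487 listed genes whose mean reached 0.3 TPM in both groups. The animals were male C57BL/6JNarl mice, 6 weeks old, without any genetic change, and each carried 2 full-thickness punch wounds on the back under a Tegaderm dressing. Each CAP wound received 200 µl of 10 µM CAP in the gel every day, and each sham wound received 200 µl of gel without CAP on the same schedule. All groups therefore share the injury, the dressing and the gel, and no untreated wound or unwounded skin enters the comparison. The sources used here do not tell if wounds of the same mouse gave more than 1 library. The 3 replicates of a group are therefore libraries, and the p-values measure the spread between these libraries. The remaining 6 libraries, from day 3, are used only where the days are compared.

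Capsaicin is the pungent compound of chili peppers and the classic activator of TRPV1, a cation channel of pain-sensing nerve endings that has also been described in keratinocytes and fibroblasts. A full-thickness skin wound closes in overlapping phases, in which neutrophils and monocytes arrive first, granulation tissue with new capillaries, contractile fibroblasts and collagen fills the gap, and keratinocytes migrate over it from the edges. Once the surface is covered, keratinocytes return to their usual course, leave the basal layer, switch to the keratins of the suprabasal layers and build the cornified envelope that makes the skin barrier.

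The unit, TPM, gives each gene's part in the transcript pool of its library after correction for gene length, so a gene can fall in TPM because others rose. Fewer cells of a type and less RNA per cell cannot be told apart in these bulk samples. Markers of keratinocytes and of dermal cells were present in all 6 libraries: the 11 basal keratinocyte markers summed to between 13637 and 25814 TPM and the 16 fibroblast markers to between 11317 and 16765 TPM. Between 18533 and 19325 genes per library reached 0.3 TPM, and mitochondrial genes held 5.61% to 6.56% of the TPM. The 3 CAP libraries differed among themselves more than the 3 sham libraries did. On the first principal component, which held 45.6% of the variance, the sham libraries lay at -35.7, -26.6 and -33.4, and the CAP libraries at 27.7, 79.4 and -11.5. CAP replicate 2 thus stood farthest from the sham group and CAP replicate 3 nearest to it, and the SD on the log2 scale, with a median of 0.248 among CAP and 0.182 among sham libraries, was larger among the CAP libraries in 11352 genes (62.0%). Values below are given in the order of replicates 1, 2 and 3.

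With a threshold of 2-fold and of 0.05 on the unadjusted p, 697 of the 18323 genes (3.80%) were called in the limma fit, 268 of them higher (1.46%) and 429 lower (2.34%) in CAP wounds. This is the study's own threshold for calling a gene. After Benjamini-Hochberg adjustment over all genes tested, limma left 0 genes under 0.05, with 0.205 as the smallest adjusted p, while 3517 genes (19.2%) had an unadjusted p under 0.05. No single gene below is therefore past an adjusted threshold. Groups without any overlap were found in 4768 genes (26.0%), with CAP above sham in 1467 (8.01%) and below in 3301 (18.0%). The median log2 difference over all genes tested was -0.12, so negative differences were the more common kind. Counts of negative differences in the lists below are to be read against this lean. Counts of calls are to be read against the shares of 1.46% higher and 2.34% lower, and a single call is not read as a result about its list. The split between the directions moved with the scaling. With median-ratio scaling, which moved that median by 0.11, 395 genes were higher and 292 lower, and with quantile normalization, which moved it by 0.12, the numbers were 406 and 244. The share of called genes that were higher went from 38.5% to 57.5% and 62.5%. Of the called genes, 0 changed direction under any setting tried. Shifts of 0.11 and 0.12 could hardly turn a 2-fold difference, so that count is a weak check of the scaling.

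CAP replicate 2 had the largest share in these calls. Against the sham mean, the median of the 268 higher genes was 1.25, 1.56 and 0.82 (log2) in the 3 CAP libraries, and that of the 429 lower genes was -1.14, -1.97 and -0.72. Of the 3 CAP libraries, replicate 2 lay farthest from the sham mean in 200 of the higher genes (74.6%) and in 355 of the lower genes (82.8%). Replicate 3 lay nearest to it in 210 (78.4%) and 300 (69.9%). Without CAP replicate 2 the test called 311 genes, and without CAP replicate 3 it called 1483. In the fit without CAP replicate 3, 1430 genes had an adjusted p under 0.05 in limma. Calls that held whichever 1 of the 6 libraries was left out numbered 83 among the higher genes and 61 among the lower.

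**Figure D1:**
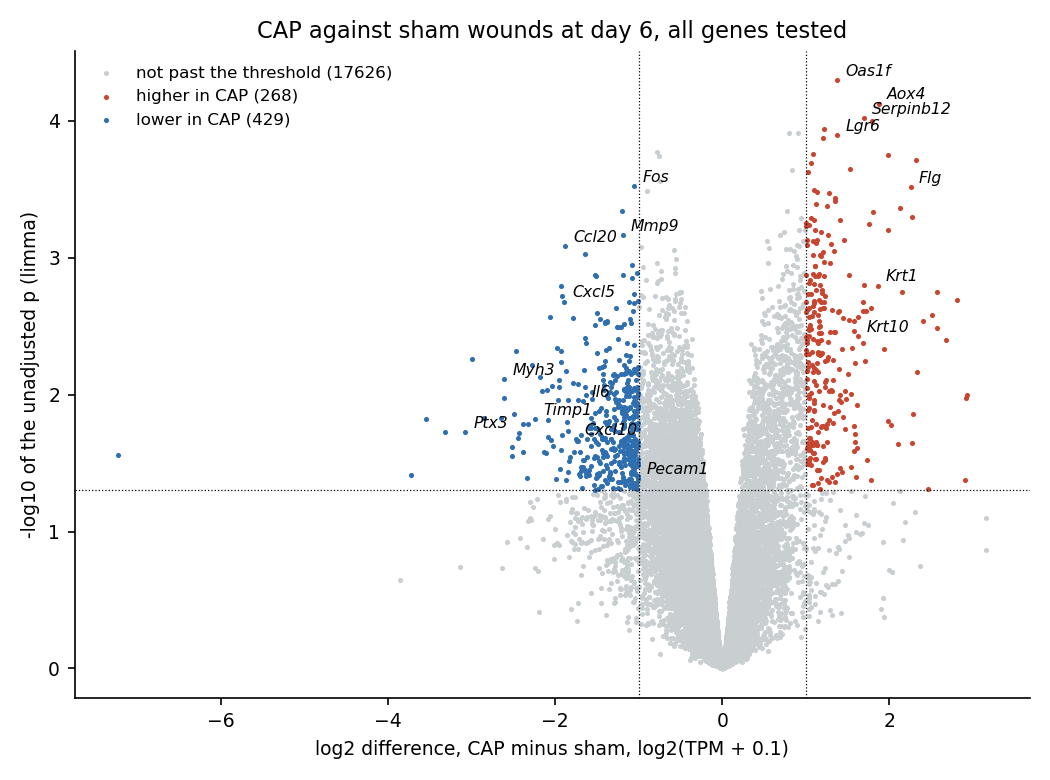
The log2 difference between CAP and sham wounds at day 6 (x axis, on log2(TPM + 0.1)) against -log10 of the unadjusted limma p (y axis) for all 18323 genes tested, with dotted lines at a 2-fold difference and at an unadjusted p of 0.05. The 268 higher genes are in red, the 429 lower genes in blue, and the rest in grey; the lowest p among the higher genes belongs to Oas1f and among the lower genes to Fos.

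Genes of the upper epidermis were higher in CAP wounds. Among the suprabasal keratinocyte markers, 4 of 10 tested were past the threshold, all higher, and the list's median difference was 0.90 against -0.12 over all genes. Among the cornified envelope genes, which encode the proteins that are cross-linked into the horny surface, 18 of 36 were higher and 4 lower, with a median of 0.97. The summed level of the 10 suprabasal markers was 20867 to 25482 TPM in the sham libraries and 42981 to 95303 TPM in the CAP libraries, so the ranges did not overlap.

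Krt1 and Krt10 encode the keratin pair that replaces the basal keratins when a keratinocyte leaves the basal layer. Krt1 stood at 4009.8, 6224 and 5217 TPM in the sham libraries and at 16381, 29718 and 12748 TPM in the CAP libraries. All 3 CAP values were above all 3 sham values, and CAP replicate 2 was far above the other two. The log2 difference was 1.86 ± 0.37 (SE), with adjusted p = 0.205 (limma).

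Krt10 was at 7432, 7489.7 and 8321 TPM in sham wounds and at 19544, 40801 and 16989 TPM in CAP wounds, a log2 difference of 1.62 ± 0.38 (SE) (limma adjusted p = 0.205). It was the most abundant transcript of each CAP library, whereas mt-Co1, a mitochondrial respiratory gene, led each sham library. Both keratin calls held without any single library. Dsc1, a desmosomal cadherin of the upper layers, went from 203, 312 and 192 TPM to 546, 541 and 343 TPM, and Calml3, a calmodulin-like protein of epithelial cells, from 121, 151 and 98.5 TPM to 241, 316 and 195 TPM. Their differences of 1.02 and 1.01 lay just past 2-fold: that of Dsc1 fell to between 0.89 and 0.93 without sham replicate 1 or 3 or CAP replicate 1 or 2, and that of Calml3 to 0.86 without sham replicate 3 and 0.83 without CAP replicate 2, with p still under 0.05 each time. The number of suprabasal markers called was 2 without sham replicate 3 or CAP replicate 2 and 8 without CAP replicate 3. Krt2, the remaining suprabasal keratin on the list and a late product of mature epidermis, differed by 0.15 (adjusted p = 0.931).

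Filaggrin, encoded by Flg (chromosome 3, positions 93273523 to 93293686, plus strand), bundles keratin filaments in the granular layer and is later broken down into the moisture-holding compounds of the surface. Its transcript was at 268, 580.4 and 585 TPM in sham wounds and at 2229, 2703 and 1646 TPM in CAP wounds. The groups were apart, sham replicate 1 being the lowest library, and the log2 difference of 2.25 ± 0.34 (SE), a 4.77-fold change with adjusted p = 0.205 (limma), held without any single library. Hrnr, which encodes the filaggrin relative hornerin, went from 116, 137 and 146 TPM to 368, 420.1 and 228 TPM (log2 difference 1.30 ± 0.23 (SE), adjusted p = 0.205, limma).

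The late cornified envelope (Lce) genes, which lie in a row on chromosome 3 and encode small precursors of the envelope, split by subfamily. Lce1i was at 125, 164 and 136 TPM in sham and 373, 572 and 238 TPM in CAP wounds (log2 difference 1.40 ± 0.30 (SE), adjusted p = 0.205, limma). Lce1e behaved much like it, with 91, 149.7 and 103 TPM and 295, 425 and 199 TPM (1.38 ± 0.30 (SE), adjusted p = 0.205). These copies are alike in sequence: 58.8% of the 31-base stretches of Lce1i and 37.3% of those of Lce1e also occur in another gene, so reads may have been divided between them and their single values are uncertain. Of the 14 Lce1 genes tested, all 14 had a positive difference and 13 were past the threshold. Many of the higher genes on the cornified envelope list are thus from this family of alike genes, whose calls may not be separate observations.

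The 4 cornified envelope genes that were lower are Lce3a, Lce3b, Sprr2b and Sprr2e, named here after their values were seen. Members of the Lce3 and Sprr2 groups are known as genes that injured and inflamed epidermis switches on. Lce3a was at 30.5, 55 and 15.7 TPM in sham and 13.4, 6.2 and 6.21 TPM in CAP wounds (log2 difference -1.88 ± 0.49 (SE), adjusted p = 0.208, limma), and the groups did not overlap. The other 3 on the list differed by -1.48, -2.51 and -1.34, and in each of them CAP replicate 1 lay within the sham range. The count of lower genes on this list was 1 when either sham replicate 1 or 2 or CAP replicate 2 or 3 was left out, and the count of higher genes was 9 without CAP replicate 2. Counting every member tested, 2 of 6 Lce3 genes and 4 of 11 Sprr2 genes were lower and 0 were higher.

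Short stretches upstream of 3 higher barrier genes are shown because each holds the AP-1 motif, the recognition sequence of the Fos and Jun family of factors, and because Fos itself was among the lower genes. Loricrin, encoded by Lor, is the most abundant protein of the envelope, and involucrin, encoded by Ivl, is among the first to be laid down; Lor and Ivl were picked for display after their values were seen. Lor was at 1341, 1927 and 1844 TPM in sham and 4215, 7095 and 3180.5 TPM in CAP wounds (log2 difference 1.44 ± 0.32 (SE), adjusted p = 0.205, limma), and Ivl at 152, 247 and 189 TPM and 402, 533 and 282 TPM (1.03 ± 0.27 (SE), adjusted p = 0.208). The groups did not overlap in either gene; the Ivl call, just past 2-fold, held in 4 of the 6 fits that left out a library. The sequences are from RefSeq on GRCm38.p6, read 5′ to 3′ on the gene's strand, with the motif TGANTCA in capitals:
Flg, chr3:93273418-93273474, plus strand: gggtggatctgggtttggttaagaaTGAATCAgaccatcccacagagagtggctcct
Lor, chr3:92083159-92083215, minus strand: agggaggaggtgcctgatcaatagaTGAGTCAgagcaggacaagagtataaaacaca
Ivl, chr3:92573820-92573876, minus strand: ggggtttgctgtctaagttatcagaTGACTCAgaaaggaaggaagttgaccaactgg
The motif starts 103, 48 and 116 bases before the RefSeq starts of Flg, Lor and Ivl, and the RefSeq start of Flg is not the start of the gene model whose position is given above. The motif was searched on both strands in the 250 bases before each start, and a gene counted if any of its promoters held it. It was found in 3 of the 18 higher suprabasal and cornified envelope genes that have a promoter sequence (16.7%). Of all 27025 genes with a promoter sequence, 7.82% had it. The motif was not limited to barrier genes or to genes that were higher. It was found before 27 of the 162 higher genes that have a promoter sequence. Among the 270 lower genes that have one it was found before 35, 4 of them cytokines or chemokines. By these counts the barrier genes did not hold it more often than the higher genes with a promoter sequence as a whole. Many called genes have no promoter sequence, and no test was run. A match is a description of the letters and says nothing of binding.

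**Figure D2:**
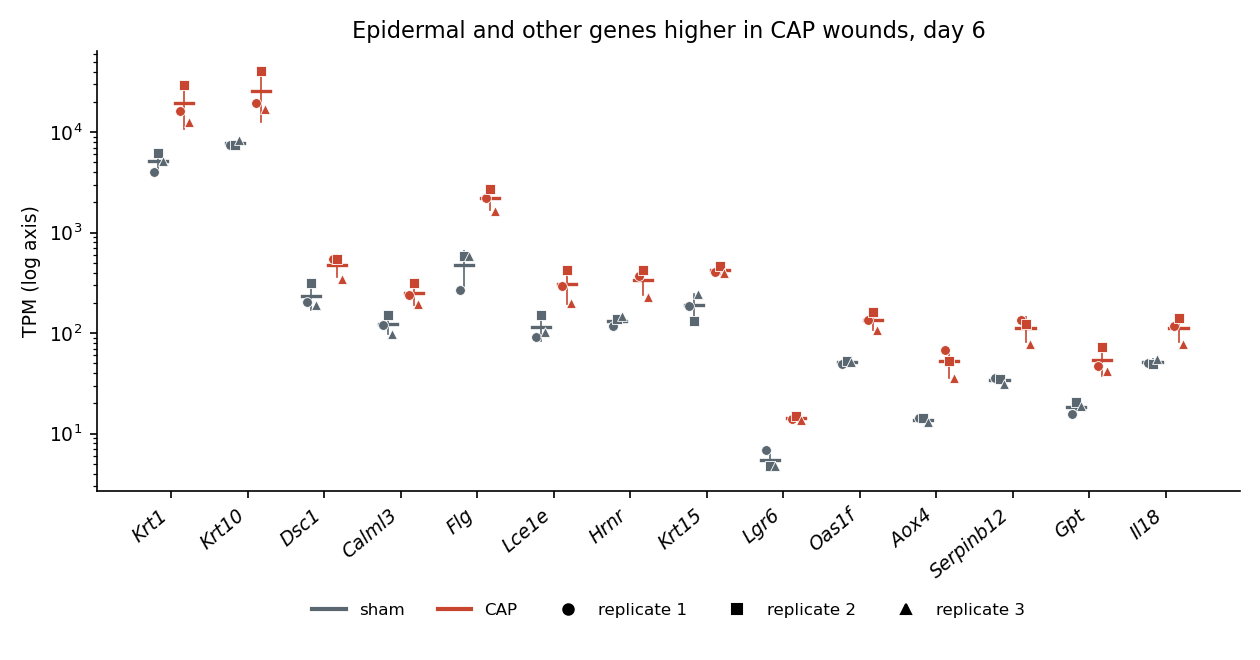
TPM on a log axis for 14 genes that were higher in CAP wounds at day 6, with sham libraries in grey and CAP libraries in red. Each marker is 1 library (circle, square and triangle for replicates 1, 2 and 3), the horizontal bar is the group mean and the vertical line spans 1 SD either side; in none of the 14 genes do the groups overlap, and the CAP triangle is the lowest CAP value in most.

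The basal layer moved less. Of the 11 basal keratinocyte markers 1 was called, Krt15, and the list's median was 0.10. Krt15, a keratin of basal and hair follicle stem cells, was at 186, 133 and 246 TPM in sham and 402, 469 and 399 TPM in CAP wounds (log2 difference 1.21 ± 0.22 (SE), adjusted p = 0.205, limma), without overlap. Without sham replicate 2 its difference was 0.98, just under 2-fold. Of the 15 wound keratins and epithelial alarm genes, which keratinocytes switch on at a wound edge, 0 were higher and 1 was lower, with a median of -0.07. When CAP replicate 1 was left out, 4 were lower and 1 was higher and the median was -0.45, and when sham replicate 2 was left out 1 was higher. The gene called lower with all libraries was Slpi, which encodes a secreted inhibitor of neutrophil elastase. It stood at 99.6, 142 and 83.7 TPM in sham and 35.7, 23.2 and 63.6 TPM in CAP wounds (-1.5 ± 0.37 (SE), adjusted p = 0.205, limma). Values did not overlap, and the call held without any single library. The sums over this list ran from 11090 to 18113 TPM in sham and from 7883 to 25473 TPM in CAP wounds, where CAP replicate 1 was above and CAP replicate 3 below every sham library.

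The gene with the smallest p of all was Oas1f (chromosome 5, positions 120847367 to 120857986, plus strand), a member of the family of 2′-5′ oligoadenylate synthetases. It was at 49.4, 52.8 and 51.9 TPM in sham and 136, 162 and 107 TPM in CAP wounds, with tight sham values and no overlap. The log2 difference was 1.37 ± 0.16 (SE), a 2.59-fold change with adjusted p = 0.205 (limma), and it held without any single library. Oas1f shares 10.7% of its 31-base stretches with other genes, foremost Oas1c. Its direction was opposite to that of most interferon response genes.

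Aox4, an aldehyde oxidase, went from 14.2, 14.1 and 12.9 TPM to 68.4, 53.2 and 35.7 TPM, a 3.66-fold difference (1.87 ± 0.23 (SE) on the log2 scale, adjusted p = 0.205, limma). Serpinb12, a serine protease inhibitor of stratified epithelia, went from 35.6, 35.2 and 31 TPM to 136, 124 and 77.6 TPM (1.69 ± 0.21 (SE), adjusted p = 0.205). In both genes CAP replicate 3 was the lowest CAP library and still above every sham library.

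Lgr6, the R-spondin receptor that marks a stem cell pool of the hair follicle isthmus and epidermis, was at 6.91, 4.74 and 4.75 TPM in sham and 13.9, 14.8 and 13.6 TPM in CAP wounds (1.38 ± 0.18 (SE), adjusted p = 0.205, limma), and here the 3 CAP libraries lay close together. Slc16a5, a monocarboxylate transporter, was low in sham wounds at 0.380, 0.538 and 0.518 TPM and stood at 2.87, 3.77 and 1.93 TPM in CAP wounds (2.31 ± 0.33 (SE), adjusted p = 0.205). Gpt, the alanine aminotransferase, went from 15.6, 20.7 and 18.6 TPM to 47.3, 72.9 and 42.2 TPM (1.53 ± 0.22 (SE), adjusted p = 0.205). None of these groups overlapped, and the calls of Aox4, Serpinb12, Lgr6, Slc16a5 and Gpt held without any single library.

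Also among the 10 higher genes with the smallest p were Zbtb7c, a zinc finger protein, at 9.14, 8.57 and 7.35 TPM and 22.4, 19.2 and 16.5 TPM (1.20 ± 0.16 (SE)), Srcin1, an inhibitor of Src signalling, at 22.3, 17.9 and 17.6 TPM and 39.9, 46.7 and 35 TPM (1.07 ± 0.15 (SE)), and Sh3gl2, which encodes the endocytic protein endophilin A1, at 7.05, 6.86 and 7.14 TPM and 13.7, 18.1 and 13.7 TPM (1.09 ± 0.15 (SE)). Without CAP replicate 2 the differences of Srcin1 and Sh3gl2 were 0.96 and 0.95, under 2-fold.

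Inflammatory cytokines and chemokines were lower in CAP wounds. Of the 16 inflammatory cytokines tested, 5 were lower (Il6, Il10, Csf3, Osm and Lif) and 1 higher (Il18), with a median of -1.04, and of the 27 chemokines 8 were lower and 0 higher, with a median of -0.98. The summed chemokine level was 3114 to 3538 TPM in the sham libraries and 1126 to 2476 TPM in the CAP libraries, without overlap. Leaving out CAP replicate 3 gave 15 lower chemokines and 8 lower cytokines, and leaving out CAP replicate 2 gave 6 and 3, with medians of -0.64 and -0.56. The cytokine median was -0.58 with a pseudocount of 1 TPM, and 3 cytokines were lower without sham replicate 1 or 2.

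Ccl20 attracts CCR6-bearing dendritic cells and T cells. It was at 20.5, 12.3 and 14.7 TPM in sham and 2.72, 6.5 and 3.92 TPM in CAP wounds, with every CAP library below every sham library. The log2 difference was -1.89 ± 0.34 (SE), with adjusted p = 0.205 (limma), and held without any single library.

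Cxcl5 recruits neutrophils. It was at 36.9, 56.5 and 17.2 TPM in sham and 10.2, 7.95 and 8.52 TPM in CAP wounds, where the sham libraries were widely spread and the CAP libraries close together (-1.89 ± 0.40 (SE), adjusted p = 0.205, limma). Ccl2, the main attractant of CCR2-bearing monocytes, went from 47.3, 47.7 and 29.7 TPM to 21.3, 11.8 and 11.2 TPM (-1.52 ± 0.29 (SE), adjusted p = 0.205). The groups were apart in both genes, and both calls held without any single library. Ccl7, a related monocyte attractant, went from 71.1, 79.3 and 72.5 TPM to 44.8, 20.1 and 36.5 TPM (-1.21 ± 0.28 (SE), adjusted p = 0.205); without CAP replicate 2 the difference was -0.88, under 2-fold.

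Il6, a central cytokine of the early wound, stood at 5.95, 13.5 and 6.63 TPM in sham and 4.27, 1.26 and 2.82 TPM in CAP wounds. Sham replicate 2 was the highest and CAP replicate 2 the lowest library, and the groups did not overlap. The log2 difference was -1.67 ± 0.49 (SE), with adjusted p = 0.212 (limma), and the call held without any single library. Lif, of the same receptor family, went from 9.56, 14.7 and 7.64 TPM to 3.78, 2.34 and 3.78 TPM (-1.64 ± 0.30 (SE), adjusted p = 0.205), and Csf3, the growth factor of neutrophils, from 8.15, 10.5 and 7.6 TPM to 3.31, 0.896 and 3.51 TPM (-1.93 ± 0.49 (SE), adjusted p = 0.206). These calls too held without any single library. Osm, a cytokine of macrophages and neutrophils, differed by -1.38 and Il10, which dampens inflammation, by -1.17; CAP replicate 2 was the lowest library in both, and the calls held in 3 and 1 of the 6 fits that left out a library.

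Cxcl10, an attractant of CXCR3-bearing lymphocytes, was at 5.37, 7.32 and 4.08 TPM in sham and 4.08, 0.691 and 1.26 TPM in CAP wounds. CAP replicate 1 did not lie below the lowest sham library, so the groups overlapped, and the difference of -1.75 ± 0.59 (SE) (adjusted p = 0.225, limma) lost the threshold without sham replicate 1 or 2 or CAP replicate 2 or 3, where it was between -1.75 and -1.22. The gene lies within Art3 on the opposite strand, and how strand was treated is not stated.

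Tnf was at 9.36, 13.7 and 9.0 TPM in sham and 4.32, 2.0 and 12.4 TPM in CAP wounds, a log2 difference of -1.12 ± 0.60 (SE) with adjusted p = 0.334. CAP replicates 1 and 2 were below every sham library and CAP replicate 3 was within the sham range. The difference was -1.80 without CAP replicate 3, and then past the threshold. Il18, an interleukin stored as a precursor in keratinocytes, went the other way, from 50.4, 48.9 and 55.8 TPM to 118, 142 and 78.7 TPM (1.09 ± 0.21 (SE), adjusted p = 0.205, limma). The groups did not overlap, and without CAP replicate 2 its difference was 0.90.

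Short upstream stretches of 4 of the lower cytokine and chemokine genes are shown because each holds a match to the NF-kappaB consensus, the site of the factor through which inflammatory signals switch on many such genes. The consensus was searched on both strands in the 250 bases before the start and was found in 4.46% of all 27025 genes with a promoter sequence. Of the 13 lower cytokines and chemokines 7 have a sequence in the table, under 80% of them, so a share among them would be void and is not given. Cxcl1, which recruits neutrophils and stood at 38, 51.2 and 36.5 TPM in sham and 20.1, 6.83 and 16.6 TPM in CAP wounds (-1.65 ± 0.39 (SE), adjusted p = 0.205, limma), was picked for display after its values were seen. The match is in capitals, and the sequences are from RefSeq on GRCm38.p6, 5′ to 3′ on the gene's strand:
Il6, chr5:30013045-30013104, plus strand: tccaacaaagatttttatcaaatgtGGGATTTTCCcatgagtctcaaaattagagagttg
Cxcl1, chr5:90891149-90891208, plus strand: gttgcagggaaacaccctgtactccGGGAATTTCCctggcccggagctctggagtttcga
Ccl20, chr1:83116661-83116720, plus strand: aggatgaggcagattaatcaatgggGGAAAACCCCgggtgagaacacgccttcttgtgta
Cxcl10, chr5:92348958-92349017, minus strand: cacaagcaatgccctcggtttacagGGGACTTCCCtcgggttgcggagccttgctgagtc
In Ccl20 the match is on the strand opposite to the gene. The matches start 44, 71, 80 and 103 bases before the RefSeq starts of Il6, Cxcl1, Ccl20 and Cxcl10. For the same reason no share of NF-kappaB matches is given for all higher or all lower genes, of which 162 of 268 and 270 of 429 have a promoter sequence in the table.

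Markers of neutrophils, monocytes and macrophages had negative differences as well, and the 3 CAP libraries disagreed most among the neutrophil markers. CAP lay below sham without overlap in 2 of the 16 neutrophil markers and 2 of the 17 monocyte and macrophage markers tested, against 18.0% of all genes. Of the 16 neutrophil markers tested, 4 were lower and 0 higher, all 16 differences were negative, and the median was -1.33. Against the sham mean the list's median was -1.53, -2.95 and 0.10 in CAP replicates 1, 2 and 3. By this median CAP replicate 3 was not below the sham libraries. The summed level ran from 2471 to 4426 TPM in sham wounds and was 3029, 430 and 2001 TPM in CAP wounds. By the sum, CAP replicate 3 was below every sham library and CAP replicate 1 within the sham range, so the 2 measures ranked these libraries differently. The number of lower markers was 10 without CAP replicate 3, 2 without sham replicate 1 and 1 without sham replicate 2, and without CAP replicate 2 it was 2 and the median -0.64. Cd177, a surface protein of neutrophils, was at 1.63, 2.24 and 1.42 TPM in sham wounds, and in CAP wounds at 0.272 TPM, listed at 0, and at 0.944 TPM; its difference was -2.44 with all libraries and, no longer past the threshold, -2.26 without sham replicate 2. Lcn2, an antimicrobial protein of neutrophils and injured epithelium, was at 173, 349 and 265 TPM and 139, 14.8 and 281 TPM and did not pass the test (adjusted p = 0.395, limma).

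Trem1 and Clec4d, receptors of neutrophils and monocytes, were at 10.1, 16 and 7.18 TPM and 106, 148 and 100 TPM in sham wounds and at 2.96, 1.87 and 9.8 TPM and 40.1, 28.9 and 108 TPM in CAP wounds. CAP replicate 3 lay within the sham range of both. Neither call held without CAP replicate 1 or 2 or sham replicate 1 or 2, and that of Clec4d was also lost without sham replicate 3; the differences were then between -1.47 and -0.94 for Trem1 and between -1.32 and -0.81 for Clec4d. Of the 17 monocyte and macrophage markers, 2 were lower, all 17 differences were negative, and the median was -0.52. The count was 0 with either scaling, without the filter on low values or without CAP replicate 2, where the median was -0.29. It was 5 when CAP replicate 3 was left out, and 1 when any of the sham libraries was or with the replicate block. Ccr2, the receptor of the monocyte attractants above, was at 79.2, 42.9 and 61.2 TPM in sham and 40.5, 14.7 and 40.2 TPM in CAP wounds (-1.03 ± 0.42 (SE), adjusted p = 0.25, limma). It did not overlap, but without sham replicate 1 or 3 or CAP replicate 2 the difference was -0.83, -1.01 and -0.55 and p was over 0.05. Itgam, the integrin CD11b of myeloid cells, shares 68.1% of its 31-base stretches with the overlapping gene Gm49368, and its call, at -1.03, was kept in 1 of the 6 fits that left out a library, the one lacking CAP replicate 3. Its difference without CAP replicate 2 was -0.58.

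Of the 12 genes of alternatively activated macrophages 1 was lower, Arg1, which encodes arginase 1. Arg1 ran from 914, 1479 and 844 TPM in sham to 323, 123 and 846 TPM in CAP wounds, where CAP replicate 3 lay within the sham range (-1.70 ± 0.64 (SE), adjusted p = 0.238, limma). Of the fits that left out a library only that without CAP replicate 3 kept the call, and the difference was -1.0 without CAP replicate 2. The lists of T and NK cells (18 tested, median 0.03), of B and plasma cells (3 tested, -0.09) and of Langerhans and dendritic cells (12 tested, -0.32) each had 0 called genes. Leaving out CAP replicate 3 gave 1 higher T and NK gene, and the T and NK median was -0.07 without CAP replicate 2. Mast cell genes gave 1 in each direction among 11: Hdc, the enzyme that makes histamine, was at 51.2, 65.2 and 28.3 TPM and 12.3, 5.92 and 38.2 TPM, and Mrgprb2, a receptor of connective tissue mast cells, at 1.28, 0.986 and 2.27 TPM and 2.85, 4.39 and 2.41 TPM. The Hdc call was lost without sham replicate 1 or 2 or CAP replicate 1 or 2, where the difference was between -1.60 and -1.07, and that of Mrgprb2 without sham replicate 1 or 2 or CAP replicate 2, where it was between 0.83 and 1.0.

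Fos had the smallest p of the lower genes. It encodes a subunit of AP-1 and is switched on within minutes of many stimuli. It was at 208, 209.8 and 189 TPM in sham and 91.2, 82.3 and 123 TPM in CAP wounds, without overlap, a log2 difference of -1.05 ± 0.16 (SE) (adjusted p = 0.205, limma) that was -0.93 without CAP replicate 2. It was the single call among 16 immediate early genes, whose median was -0.17, and the call was lost with median-ratio scaling, with quantile normalization, in the joint fit of the 12 libraries and without CAP replicate 2. Under median-ratio scaling, and without sham replicate 2 or CAP replicate 3, the list had 1 gene called higher, and 2 were lower without sham replicate 1 or CAP replicate 3. Icam1, the endothelial and leukocyte adhesion molecule, went from 67, 64.2 and 58.5 TPM to 32.4, 21.3 and 38.4 TPM (-1.08 ± 0.21 (SE), adjusted p = 0.205), and was -0.84 without CAP replicate 2. Lmcd1, a LIM domain protein, went from 37.2, 38.9 and 30.2 TPM to 17.2, 11.6 and 17.9 TPM (-1.20 ± 0.19 (SE), adjusted p = 0.205), and held without any single library. Olfr1033, an odorant receptor gene that shares 9.84% of its 31-base stretches with other genes, foremost Olfr1032, went from 8.3, 10.2 and 9.03 TPM to 2.44, 2.5 and 5.05 TPM (-1.51 ± 0.29 (SE)), and Tceal7 from 4.58, 5.49 and 6.77 TPM to 2.52, 2.4 and 2.84 TPM (-1.07 ± 0.20 (SE)); that of Tceal7 was -0.93 without sham replicate 3.

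The interferon response genes were lower by modest amounts. Of 57 tested, 4 were lower and 0 higher at the 2-fold threshold, 28 had an unadjusted p under 0.05, 55 differences were negative, and the median was -0.60. Leaving out 1 library gave between 0 lower genes (without CAP replicate 2) and 12 (without CAP replicate 1). In place of 4 lower genes there were 2 with median-ratio scaling, 1 with quantile normalization or a pseudocount of 1 TPM, and 7 with the replicate block. CAP replicate 1 was the library nearest to the sham group here, with a list median of -0.17 against -0.91 and -0.71 in CAP replicates 2 and 3, whereas in the neutrophil list it was CAP replicate 3. Rsad2, which encodes the antiviral enzyme viperin, was at 10.3, 9.05 and 9.48 TPM in sham and 6.11, 4.24 and 3.94 TPM in CAP wounds (-1.02 ± 0.20 (SE), adjusted p = 0.205, limma), without overlap, and was between -0.97 and -0.90 when sham replicate 1 or either of CAP replicates 2 and 3 was left out.

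Helz2, an interferon-induced helicase, was at 12.9, 11.5 and 9.64 TPM and 5.95, 3.2 and 6.64 TPM (-1.15 ± 0.29 (SE), adjusted p = 0.205, limma), and was -0.83 without CAP replicate 2. Isg15, a ubiquitin-like protein, and Oas3, a synthetase of the same family as Oas1f, had overlapping groups, at 31.2, 15.4 and 13.7 TPM against 13.8, 9.5 and 5.53 TPM and at 9.37, 7.74 and 4.97 TPM against 5.36, 1.91 and 2.77 TPM, and lost the threshold when sham replicate 1 or either of CAP replicates 2 and 3 was left out, and Oas3 also when sham replicate 2 was. Their differences were -1.05 and -1.19 with all libraries and, in those fits, between -1.09 and -0.69 and between -1.13 and -0.87. The 16 guanylate binding proteins and immunity-related GTPases had 0 calls, a median of -0.57 and 16 negative differences; leaving out CAP replicate 1 gave 3 lower genes and a median of -0.78. Iigp1 of that group was at 15.9, 10.6 and 10.3 TPM and 14.3, 6.41 and 5.85 TPM (adjusted p = 0.408). Ifng, the gene of interferon gamma, was under the filter, at 0.259 TPM or less in every day 6 library.

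Of the cytokine receptor pathway genes that the study names from its day 3 data, 14 of 15 could be tested at day 6, and 4 were lower (Cxcl10, Il6, Ccr2 and Ppbp) and 0 higher, with a median of -0.86. The study names Ppbp, Gdf15, Il7r and Gm13306 as upregulated and the rest as downregulated, so this median mixes the directions. At day 6 the differences of these upregulated genes were -1.15, -0.95, -0.44 and -0.84. Over the list 13 differences were negative and 1 was positive. Il6, Cxcl10 and Ccr2 are described above. The list came from day 3 libraries of the same series, and the day 6 libraries are other samples. Ppbp, a platelet chemokine, was at 1.63, 1.98 and 2.79 TPM in sham and 0.751, 1.14 and 0.793 TPM in CAP wounds (-1.15 ± 0.30 (SE), adjusted p = 0.208, limma), and -0.95 without sham replicate 3. The number of lower genes on this list was 2 without CAP replicate 2 or without sham replicate 1.

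Genes that cut and rebuild the matrix were lower. Of the 33 matrix remodelling genes tested, 9 were lower and 0 higher, with a median of -0.54 and 32 negative differences. Leaving out sham replicate 1 or 2 or CAP replicate 2 gave 5 lower genes, and leaving out CAP replicate 3 gave 16. Mmp9, the gelatinase that migrating keratinocytes and neutrophils release, was at 237, 224 and 147 TPM in sham and 84.5, 75.9 and 102 TPM in CAP wounds. The groups did not overlap, and the log2 difference of -1.19 ± 0.21 (SE) (adjusted p = 0.205, limma) held without any single library.

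Mmp13, a collagenase, was at 144, 123 and 66.8 TPM in sham and 24.4, 44.5 and 60.9 TPM in CAP wounds (-1.38 ± 0.40 (SE), adjusted p = 0.21, limma); sham replicate 3 and CAP replicate 3 nearly met. Mmp12, the macrophage elastase, went from 50.4, 32.2 and 32.4 TPM to 15.7, 9.67 and 26 TPM (-1.24 ± 0.36 (SE), adjusted p = 0.212), and was -0.89 without CAP replicate 2. Timp1, an inhibitor of these enzymes, had the lowest difference of the list, from 882, 727 and 592 TPM to 169, 49.6 and 430.1 TPM (-2.24 ± 0.70 (SE), adjusted p = 0.217). Its 3 CAP values were widely spread, CAP replicate 2 being the lowest and CAP replicate 3 the highest, but none reached the sham values and the call held without any single library.

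The 20 collagen genes all had negative differences, with a median of -0.50, and 4 of them were lower. Col8a1, a network collagen made by activated vessel wall and matrix cells, was at 22.1, 18.6 and 19.4 TPM in sham and 5.72, 3.14 and 10.5 TPM in CAP wounds (-1.78 ± 0.40 (SE), adjusted p = 0.205, limma), apart and with a call that held without any single library. Col12a1, which decorates collagen fibrils, went from 134, 184 and 147 TPM to 59.5, 18.1 and 98.9 TPM (-1.70 ± 0.56 (SE)), Col24a1, a minor fibrillar collagen, from 7.89, 6.61 and 4.62 TPM to 2.51, 1.4 and 3.83 TPM (-1.35 ± 0.38 (SE)), and Col4a1 of the basement membrane from 381, 327 and 450.1 TPM to 263, 82.6 and 268 TPM (-1.09 ± 0.45 (SE)). Without CAP replicate 2 the differences of Col24a1 and Col4a1 were -0.98 and -0.53, and that of Col12a1, no longer past the threshold, was -1.56 when sham replicate 2 was left out. Leaving out CAP replicate 2 left 2 lower collagen genes, and leaving out CAP replicate 3 gave 9.

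The main fibrillar collagens did not pass the test. Col1a1 was at 7051, 5748 and 6531 TPM in sham and 4259, 3919.5 and 5832 TPM in CAP wounds, a log2 difference of -0.48 ± 0.23 (SE) with adjusted p = 0.295 (limma), and CAP replicate 3 lay within the sham range. Col3a1 was at 12036, 8546 and 9822 TPM and 7611, 7166 and 9804 TPM (-0.31 ± 0.26 (SE), adjusted p = 0.519). The 16 fibroblast markers had 0 calls, or 1 lower without CAP replicate 3, and a median of -0.06, which lies above the median of all genes and is 0.06 with median-ratio scaling.

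Among the 24 growth and angiogenic factors, 4 were lower and 1 higher, with a median of -0.49. Vegfa, the main driver of new capillaries, was at 229.5, 243 and 164 TPM in sham and 80.5, 57 and 146 TPM in CAP wounds, without overlap (-1.26 ± 0.34 (SE), adjusted p = 0.209, limma), and was -0.95 without CAP replicate 2. Vegfc, which acts on lymphatic vessels, went from 3.65, 3.82 and 4.49 TPM to 1.79, 1.24 and 2.4 TPM (-1.14 ± 0.27 (SE), adjusted p = 0.205), and was -0.90 without that library. Pgf, the placental growth factor of the same family, went from 37.2, 45.6 and 37.4 TPM to 9.74, 1.69 and 22.3 TPM (-2.44, adjusted p = 0.225); it is the remaining lower gene beside Igf2 and is named after its values were seen. Igf2 was at 6.48, 9.1 and 14 TPM and 3.67, 3.52 and 4.5 TPM (-1.25 ± 0.29 (SE)), but shares 61.9% of its 31-base stretches with the overlapping gene Gm49394, and was -0.97 without sham replicate 3. The higher gene was Fgf22, a fibroblast growth factor of keratinocytes, at 6.0, 9.64 and 7.18 TPM and 16.2, 22.8 and 12.8 TPM (1.16 ± 0.26 (SE), adjusted p = 0.205), and 0.94 without CAP replicate 2. With CAP replicate 2 left out, 2 factors were lower and 0 higher. Of the 14 hypoxia response genes, which low oxygen switches on, Vegfa and Adm were lower, 14 differences were negative and the median was -0.66; 0 were called without CAP replicate 2, with a median of -0.34, 1 without sham replicate 1 and 6 without CAP replicate 3.

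Vessel genes were lower too, with CAP replicate 2 far below the rest. Of the 16 endothelial markers, 6 were lower and 0 higher, 16 differences were negative, and the median was -0.99 against -0.12 over all genes. CAP lay below sham without overlap in 12 of these markers, against 18.0% of all genes. In CAP replicates 1, 2 and 3 the list stood at -0.46, -1.99 and -0.53 against the sham mean, and the summed level was 634 to 852 TPM in sham and 198 to 569 TPM in CAP wounds, without overlap. Without CAP replicate 2 the median was -0.52 and 0 markers were called. In place of 6 lower markers there were 2 without the filter on low values, 3 with quantile normalization and 1 with median-ratio scaling. Leaving out sham replicate 1 or 3 gave 0, as leaving out CAP replicate 2 did, sham replicate 2 gave 3, and leaving out CAP replicate 1 or 3 gave 13 or 12.

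Pecam1, which encodes the junction protein CD31, was at 103, 88.6 and 122 TPM in sham and 77.4, 25.7 and 68.9 TPM in CAP wounds. All CAP values were below all sham values, and the log2 difference was -1.0 ± 0.40 (SE) (adjusted p = 0.246, limma) with all libraries and -0.5 without CAP replicate 2. Cdh5, the cadherin of endothelial junctions, went from 84.3, 79.8 and 99.6 TPM to 59.8, 17 and 59.5 TPM (-1.15 ± 0.47 (SE), adjusted p = 0.248), and was -0.55 without CAP replicate 2. Esam and the transcription factor gene Sox18 went from 24.6, 21.8 and 30.9 TPM and 27, 22.8 and 24.6 TPM to 18.1, 5.93 and 14.5 TPM and 15.5, 6.46 and 17 TPM, and without CAP replicate 2 differed by -0.65 and -0.60. Of the 6 lymphatic markers 1 was lower, Pdpn, which keratinocytes and fibroblasts also make, at 317, 291 and 278 TPM and 158, 75.5 and 194 TPM (-1.15 ± 0.33 (SE)), and -0.75 without CAP replicate 2.

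The 12 markers of myofibroblasts, pericytes and smooth muscle, the contractile cells of the granulation tissue and vessel wall, had 4 lower members and a median of -0.85. Acta2, the smooth muscle actin of myofibroblasts, was at 177, 231 and 301 TPM in sham and 126, 32.9 and 122 TPM in CAP wounds, without overlap (-1.53 ± 0.52 (SE), adjusted p = 0.225, limma). Leaving out CAP replicate 2 gave -0.90, and leaving out sham replicate 2 or 3 gave -1.53 or -1.34, all short of the threshold. Tagln, an actin-binding protein, went from 52.6, 59.4 and 84.5 TPM to 38.2, 14.6 and 30.3 TPM (-1.32 ± 0.36 (SE), adjusted p = 0.209), and was -0.91 without CAP replicate 2. Actg2 and Myl9 went from 8.18, 9.68 and 15.6 TPM and 51.6, 54.8 and 81.1 TPM to 5.32, 1.12 and 5.09 TPM and 45.5, 18.1 and 34 TPM, and the number of lower genes was 1 without sham replicate 3 or CAP replicate 2.

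**Figure D3:**
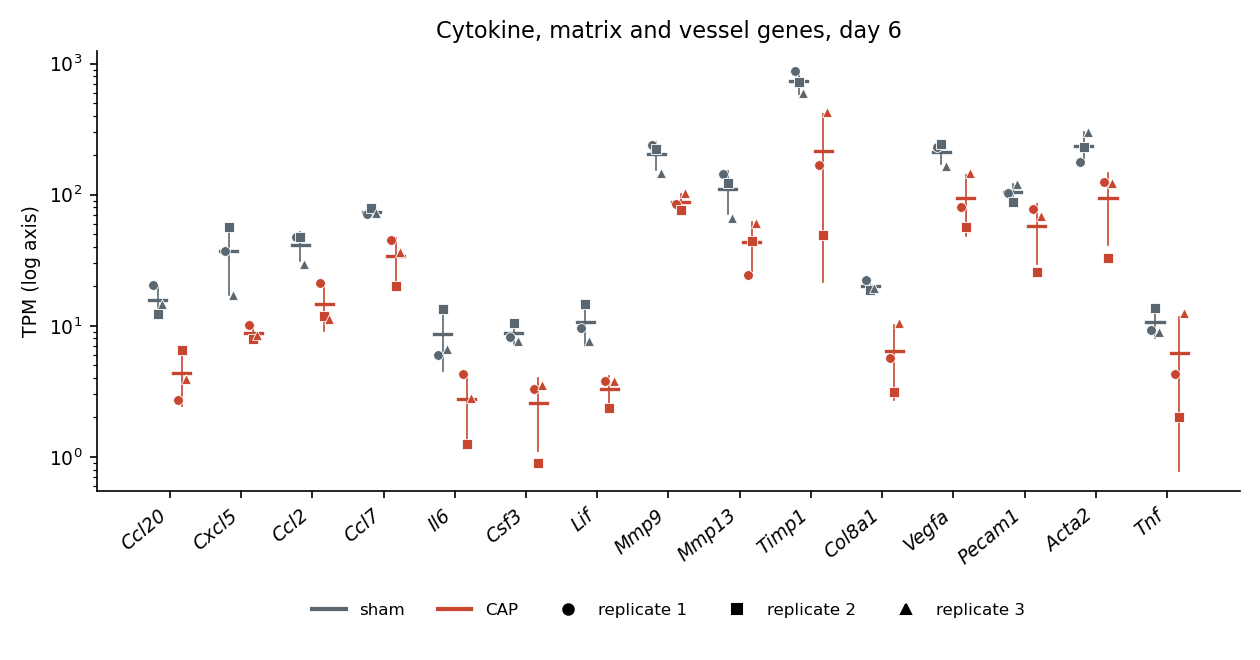
TPM on a log axis for 15 cytokine, matrix and vessel genes at day 6, with sham libraries in grey and CAP libraries in red. Each marker is 1 library (circle, square and triangle for replicates 1, 2 and 3), the horizontal bar is the group mean and the vertical line spans 1 SD either side; the groups are apart in every gene but Tnf, where the CAP triangle lies within the sham range.

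Muscle that regrows beneath a full-thickness wound expresses embryonic forms of its contractile proteins. Of the 10 muscle regeneration genes, 5 were lower and 0 higher, 10 differences were negative, and the median was -1.35. Myh3, the embryonic myosin heavy chain, was at 2.29, 8.87 and 14.3 TPM in sham and 0.917, 0.564 and 1.91 TPM in CAP wounds (-2.61 ± 0.71 (SE), adjusted p = 0.209, limma). Actc1, the fetal form of sarcomeric actin, was at 2.15, 11.5 and 20.2 TPM and 1.26, 0.953 and 1.54 TPM (-2.61 ± 0.75 (SE), adjusted p = 0.212). The sham libraries themselves were widely spread in both, sham replicate 1 being the lowest, yet no CAP value reached them and both calls held without any single library. Myl4 and Myh8 went from 7.42, 10.0 and 21.9 TPM and 4.78, 12.2 and 19.6 TPM to 3.64, 4.2 and 5.23 TPM and 2.38, 4.38 and 3.88 TPM, and the number of lower genes was 2 without sham replicate 3 and 3 without CAP replicate 1. Of the 24 genes of mature skeletal muscle 1 was lower, Myh4, with a list median of -0.41. Myh4 shares 30.4% of its 31-base stretches with other genes, and its difference of -1.19 was -0.78 without sham replicate 1.

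Other tissues that the punch could hold gave few calls, but all differences of the erythroid and platelet lists were negative. Of the 15 Schwann cell and myelin genes 1 was lower, the adhesion molecule gene Ncam1, which muscle and nerve share, at 8.0, 11 and 11.4 TPM and 2.71, 3.11 and 7.65 TPM (-1.29 ± 0.39 (SE), adjusted p = 0.212, limma), a call that held without any single library. Of the 14 adipocyte markers 1 was higher, Lep, the gene of the hormone leptin, at 1.18, 0.714 and 1.73 TPM and 5.03, 3.34 and 2.16 TPM (1.46 ± 0.41 (SE), adjusted p = 0.209); the list had a median of 0.49, and 3 of its genes were called with either scaling or without CAP replicate 2 and 4 without sham replicate 3. The 9 erythroid genes, a measure of blood in the sample, had 0 calls and a median of -1.09, with sums of 2157 to 5685 TPM in sham and 742 to 3228 TPM in CAP wounds. Of these genes 4 were lower in the joint fit of the 12 libraries, 5 with the replicate number as a block and 5 without CAP replicate 3, and the median ran from -1.68 without CAP replicate 3 to -0.56 without CAP replicate 2. At day 3 the list had a median of 2.06 and 6 higher genes. The 5 platelet genes had 1 call, Ppbp, and a median of -0.80, with 3 calls without CAP replicate 3 and 0 without sham replicate 3. Among 10 hair follicle genes 2 were higher and 1 lower, and the lists of sebaceous gland genes (14 tested, median 0.36) and melanocyte genes (5 tested, 0.09) had 0 calls. Krt32, a hair keratin, was at 0.460, 0.449 and 1.18 TPM and 2.92, 1.99 and 1.44 TPM, and Tchh, which encodes the trichohyalin of the inner root sheath, at 44.5, 15.7 and 12.7 TPM and 10.3, 3.43 and 4.02 TPM, without overlap in either. How far the mix of tissues in each sample bears on the results above was not tested.

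Trpv1 itself was under the filter, at 0.114, 0.175 and 0.172 TPM in sham and 0.151, 0.0322 and 0.147 TPM in CAP wounds, so that no difference could be tested for the channel. Of the 9 sensory channel and neuropeptide genes that could be tested 1 was lower, Adm, which encodes the vessel-widening peptide adrenomedullin, at 101, 67 and 92.8 TPM and 43, 19.4 and 65.8 TPM (-1.17 ± 0.42 (SE), adjusted p = 0.23, limma), and -0.69 without CAP replicate 2. The 30 cell cycle genes (median 0.16), the 23 cholesterol synthesis genes (0.37) and the 10 heat shock genes (-0.10) had 0 calls; 1 cholesterol synthesis gene was higher with median-ratio scaling or without sham replicate 2 or CAP replicate 3. Of the 16 circadian clock genes 1 was lower, Npas2, at 11, 6.47 and 7.34 TPM and 4.23, 1.97 and 5.7 TPM (-1.13 ± 0.40 (SE)), and the median was 0.29; the Npas2 call was lost without sham replicate 1 or CAP replicate 2, at -0.91 and -0.70.

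**Figure D4:**
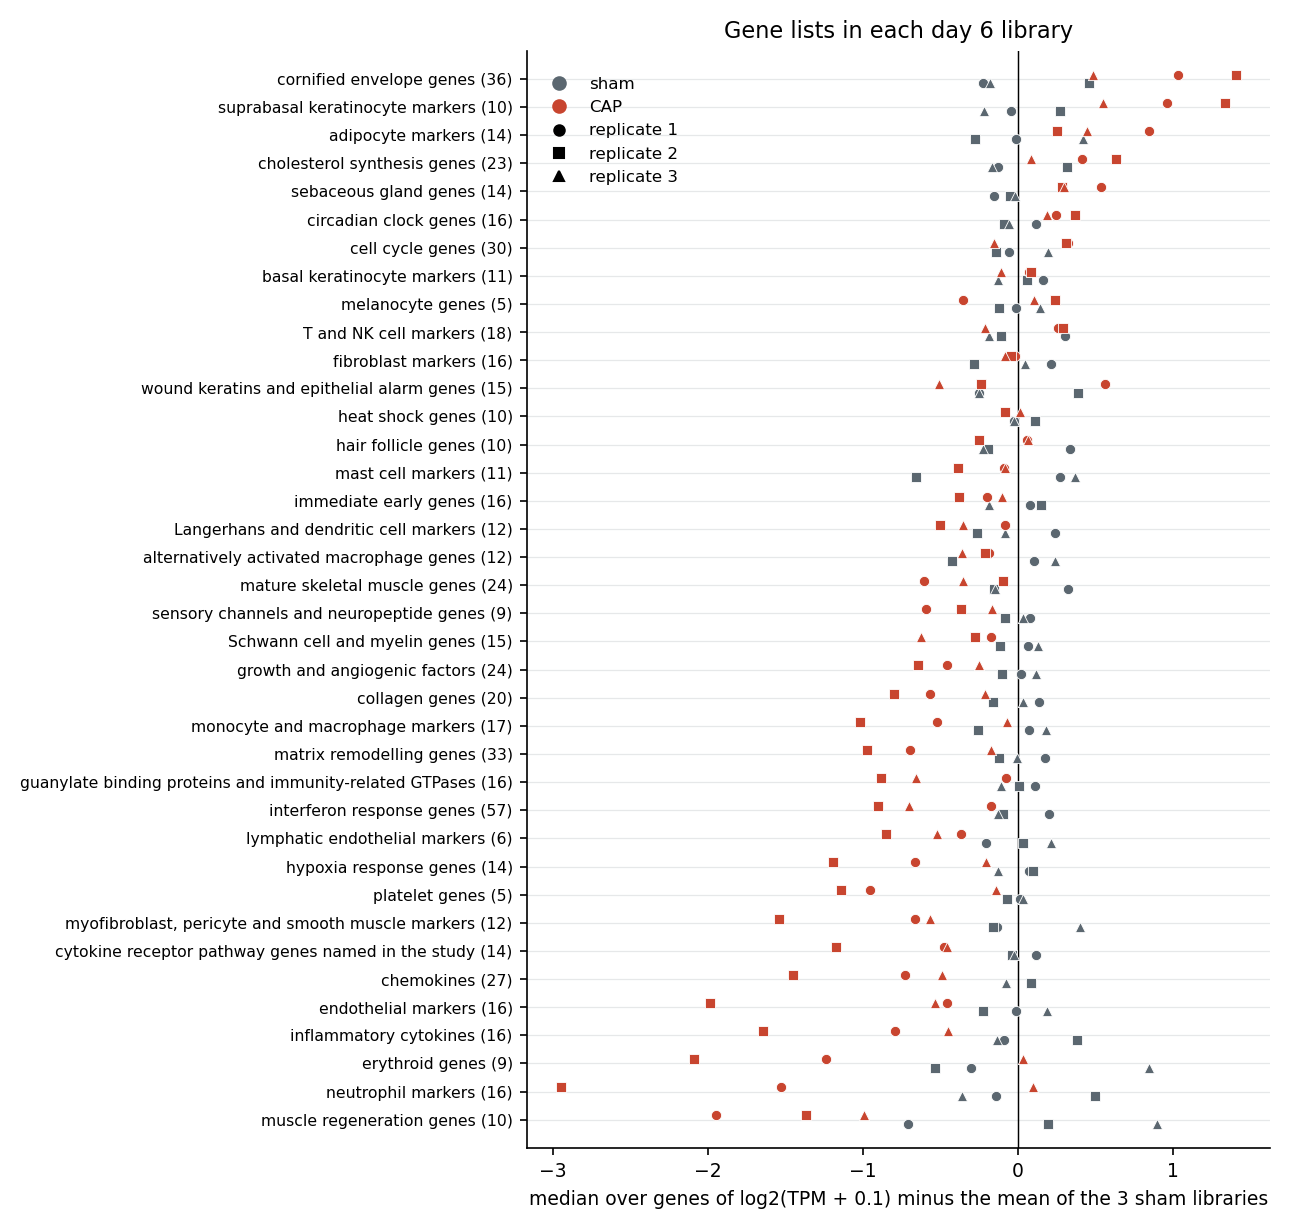
Gene lists with at least 5 genes tested (number in brackets) in each day 6 library, as the median over the list's genes of log2(TPM + 0.1) minus the mean of the 3 sham libraries (x axis). Sham libraries are grey and CAP libraries red, with circle, square and triangle for replicates 1, 2 and 3; the CAP square is the lowest library of the neutrophil, endothelial, chemokine and cytokine lists and the highest of the suprabasal and cornified envelope lists.

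The 10 genes of at least 10 TPM with the largest SD among the CAP libraries were Acod1, Chil3, Lcn2, Ptx3, Stfa2l1, Alox8, Car4 and 3 mitochondrial transfer RNA genes. Only Ptx3 among them was past the threshold. Ptx3, a soluble pattern recognition protein, was at 133, 186 and 99.1 TPM in sham and 41.8, 2.52 and 37.3 TPM in CAP wounds (-3.08 ± 1.01 (SE), adjusted p = 0.22, limma), and -2.84, no longer past the threshold, without sham replicate 2. Acod1, the itaconate-producing enzyme of activated macrophages, was at 42.4, 82.3 and 40.2 TPM and 11, 2.54 and 82.4 TPM, so that CAP replicate 3 was level with the highest sham library, at 82.4 against 82.3 TPM, while CAP replicate 2 was lower than every other. Chil3, a chitinase-like protein of macrophages, was at 21.3, 53.9 and 49.7 TPM and 10.4, 1.15 and 36.4 TPM, and Stfa2l1, a stefin of neutrophils, at 14.9, 28.8 and 13.6 TPM and 5.52, 1.03 and 23.9 TPM. Car4, a membrane carbonic anhydrase, was at 28.3, 45.9 and 30.9 TPM and 6.57, 1.62 and 35.5 TPM, with CAP replicate 3 again within the sham range. Without CAP replicate 3 the differences of Acod1, Chil3 and Stfa2l1 were -3.27, -3.42 and -2.85, all past the threshold. Alox8, a lipoxygenase of skin, was at 23, 19.6 and 3.82 TPM in sham and 29.4, 0.559 and 3.37 TPM in CAP wounds, with an SD on the log2 scale of 1.42 and 2.75. The mitochondrial transfer RNA genes mt-Ts1, mt-Ty and mt-Tc were listed at 0 in CAP replicate 1 and at 7.70 TPM or more in each of the other libraries. In all, 13 of the 697 called genes were listed at 0 in at least 1 library. Among them was Gm49909, the gene with the largest difference, named after its values were seen: it was listed at 173, 141 and 176 TPM in sham wounds and at 0 in CAP replicates 1 and 2, with a CAP mean of 42.3 TPM that came from CAP replicate 3 alone, and its call held in 0 of the 6 fits that left out a library.

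The day 3 libraries share no sample with those of day 6. At day 3 the same threshold called 78 genes higher (0.426% of 18330) and 212 lower (1.16%). Of the 268 genes higher at day 6, 264 were tested at day 3, where their median difference was 0.00 against -0.05 over all genes, 2 were called higher and 7 lower. Of the 429 lower genes, 422 were tested, with a median of -0.19, and 27 were called lower (6.40%) and 7 higher at day 3. A positive difference at day 3 was found in 135 of the 264 (51.1%) against 37.6% of all genes, and a negative one in 293 of the 422 (69.4%) against 62.4%. The difference between the CAP effects at day 6 and at day 3 was tested in a joint fit of 20267 genes. It left 0 genes with an adjusted p under 0.05 in limma (smallest 0.172), 2292 with an unadjusted p under 0.05, and past both the p and 2-fold thresholds 441 genes with a higher (2.18%) and 553 with a lower (2.73%) difference at day 6.

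Flg differed by -0.17 (log2) at day 3 and Krt1 by -0.07, and the test of the change of effect had an adjusted p of 0.428 and 0.428 in limma. The suprabasal list had a day 3 median of 0.00 and 0 calls. Il18 differed by -0.32 at day 3, Oas1f by -0.12, Ccl2 by 0.12 and Mmp9 by 0.23, so that these genes stood near or on the other side of 0. Their changes of effect had an adjusted p of 0.428, 0.428, 0.428 and 0.428 in limma. Arg1 was higher at day 3, by 1.44, and lower at day 6 (adjusted p of the change 0.428, limma). Ppbp likewise was higher at day 3, by 1.19, and lower at day 6 (adjusted p of the change 0.428).

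Some genes were lower on both days. Myh3 differed by -2.72 and Actc1 by -2.86 at day 3, close to their day 6 values, and the muscle regeneration list had a day 3 median of -1.28 with 5 lower genes. Isg15, Oas3, Ccr2 and Cxcl10 were lower at day 3 as well, by -1.68, -1.53, -1.33 and -1.30. The interferon response list had 30 lower genes at day 3 and a median of -1.06, against 4 and -0.60 at day 6. Ncam1 differed by -1.28 and Igf2 by -1.42. The neutrophil list, in contrast, had a day 3 median of 0.01, the endothelial list -0.05 and the inflammatory cytokine list -0.32.

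**Figure D5:**
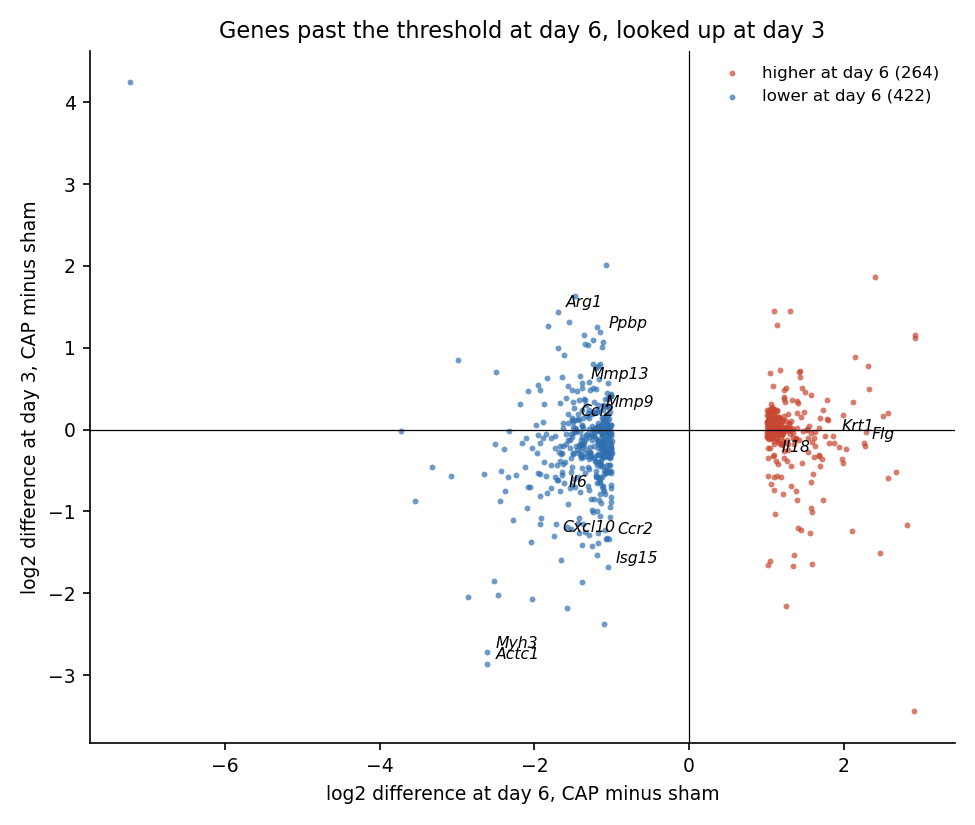
The log2 difference between CAP and sham wounds at day 6 (x axis) and at day 3 (y axis) for the genes past the threshold at day 6 that were also tested at day 3, 264 higher (red) and 422 lower (blue). The gap around 0 on the x axis comes from the 2-fold threshold; along the y axis the higher genes centre on 0, while Myh3, Actc1, Isg15, Ccr2 and Cxcl10 lie below it and Arg1 and Ppbp above it.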

How the data were processed

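The submitters' processing notes name bcl2fastq, Trimmomatic 0.36 and the build mm10, and the study's methods name StringTie for expression. The authors deposited 1 table per library with TPM for 55487 genes, in which 0.0001 stands for 0; 55141 of the gene identifiers are in GENCODE M21, and positions are on GRCm38. Aligner, strand setting and library depth are not stated in these sources, so counting error is unknown. Further columns of per-sample values numbered 0. The study's DESeq or DESeq2 step needs counts and was not repeated on TPM.

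TPM were put on log2(TPM + 0.1), genes whose mean reached 0.3 TPM in CAP and in sham wounds were kept, and limma 3.58.1 in R 4.3.3 was fitted with an intensity trend and Benjamini-Hochberg adjustment. A gene was called at an unadjusted p under 0.05 and a 2-fold difference. With 3 libraries against 3, an exact permutation test cannot give a p under 0.1. The fit was tested on simulated data. Alternatives were a pseudocount of 1 or 0.01 TPM, no filter or a filter of 1 TPM, median-ratio scaling, quantile normalization, a joint fit, robust estimation, the replicate number as a block, and each library left out. Python 3.11.15 with pandas 2.3.3 and matplotlib 3.10.9 summarised and drew the results.

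The comparison, its 39 gene lists and the genes named were chosen with earlier results of these data known. Named genes were, in each direction, the 10 of smallest p with a given symbol and no overlap of the groups; any with an adjusted p under 0.05; up to 4 members of each list, the called ones of smallest p or else the most abundant; the genes the study discusses; and the 10 of at least 10 TPM with the largest SD among CAP libraries. Further genes are marked where named. A gene that this rule names is not reported here. Shared sequence is the share of a gene's 31-base stretches found in transcripts of other genes. Promoters are the RefSeq bases before each start on GRCm38.p6.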

Additional observations from a re-analysis of the deposited data

How the results depend on the processing

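The number of called genes was 697. With a pseudocount of 1 TPM 385 genes were called, 157 higher and 228 lower, and 374 of the 697 calls were kept. Without the filter on low values 419 were higher, and with quantile normalization 406 were higher and 244 lower. Leaving out 1 library at a time gave 311 to 1483 genes, 140 to 458 higher and 171 to 1025 lower; the lowest numbers came without CAP replicate 2 and the highest without CAP replicate 3. Without sham replicate 1 the number of lower genes was 253. The adjusted count was 0 to 1430 in these fits, and above 0 only without CAP replicate 3. No called gene changed direction under any of these settings, a weak check because each called gene differs at least 2-fold. The difference between the days (994 genes) counted 580 with a pseudocount of 1 TPM and 657 to 1777 with a library left out, with 0 to 1 at an adjusted p under 0.05. The cause of these changes was not tested.

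The sample titles do not state that replicate numbers pair the samples, and they were not treated as pairs in the main fit. The deviations of same-numbered sham and CAP libraries correlated at 0.0170, 0.0938 and 0.0731 across genes, none over 0.1. Each CAP library nevertheless correlated best with its own number. With 3 libraries per group these values cannot decide if a pairing exists. With the replicate block 725 genes were called, 265 higher and 460 lower, 645 of the 697 calls were kept, and the difference between the days had 4 genes at an adjusted p under 0.05. TPM carry no depth, so precision rests on 3 libraries per group, and low genes carry the most error.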
